A study of Mus musculus with 42 samples.

Results

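A set of 10 genes that act against superoxide, peroxides, quinones and free metal ions was followed through the RNA-seq libraries of iPax7 cells and satellite cells, out of 24466 gene symbols counted. The list comprised the superoxide dismutases Sod1, Sod2 and Sod3, the catalase gene Cat, the glutathione peroxidases Gpx1, Gpx3 and Gpx4, the quinone reductase Nqo1 and the metallothioneins Mt1 and Mt2. The genes were picked by symbol, and Sod3 was included because iPax7 cells grown with Dox had no count for it, so that its differences are described here and not tested. All 10 genes had a row in every count file and all 10 passed the filter on low counts, Sod3 through the satellite cell libraries.

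iPax7 cells are myogenic precursors made from one mouse ES cell line that carries a Pax7 transgene under doxycycline (Dox) control; the precursors were sorted from embryoid bodies as PDGFαR+ Flk-1- cells. The +Dox group was kept in 0.75 μg/ml Dox (3 libraries) and the -Dox group was harvested 3 days after Dox was taken away (2 libraries). Both groups derive from the same transgenic line, which limits them as models to 1 genetic background, and both were cultured in serum medium with FGF, transferrin, ascorbic acid and thioglycerol. The satellite cells, the stem cells of skeletal muscle, were labelled in vivo and came from the muscle of mice that report Pax7 with ZsGreen (3 libraries). The age and sex of the mice, and whether the libraries stem from separate cultures or animals, are not given in the sources used here, so that every p-value measures the spread between these libraries only.

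Superoxide formed by mitochondria and NADPH oxidases is turned into hydrogen peroxide by superoxide dismutases, of which Sod1 works in the cytosol, Sod2 in mitochondria and Sod3 outside the cell. Catalase breaks down hydrogen peroxide in peroxisomes, and selenium-dependent glutathione peroxidases reduce peroxides with glutathione, Gpx1 in the cytosol, Gpx3 as a secreted enzyme and Gpx4 on membrane lipids. Nqo1 reduces quinones by a transfer of electron pairs and is a classical target of the factor Nrf2 (Nfe2l2), whereas metallothioneins bind zinc and copper and are induced through the factor Mtf1.

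Between 39010958 and 54674619 reads per library fell on genes. Pax7 averaged 12830 normalized counts in +Dox cells, 245.1 in -Dox cells and 5962 in satellite cells, and the differentiation factor Myog averaged 4150, 175000 and 2452, so the Dox labels held. Summed over 10 satellite cell markers the level was 264000 to 316700 in satellite cells, 150300 to 219700 in +Dox cells and 23620 to 24880 in -Dox cells, and 8 of the 10 were lower in +Dox than in satellite cells, among them Calcr, which averaged 0.8539 in +Dox cells. Over 10 myofiber markers the sum was 1664000 to 1764000 in -Dox cells and at most 13890 in the other groups. A normalized count is the read count divided by the library's effective size and brought to a common scale. Satellite cell libraries stood apart in quality measures: reads that aligned to more than one place came to 23.58% to 30.68% there, against 7.112% to 7.604% in iPax7 libraries. They also held RNA of genes used as markers of other cell types. Summed over 8 endothelial markers the level was 18580 to 24680 in satellite cells and 180.1 to 1100 in iPax7 cells, where Cdh5 was at 0 in both groups. Over 8 blood and macrophage markers it was 2812 to 11450 against 157.5 to 464.3, with Ptprc, Adgre1, Itgam, Cd52 and Tyrobp at 0 in all iPax7 libraries. Over 8 fibroblast and mesenchymal markers it was 169400 to 395600 in satellite cells, 32040 to 33640 in +Dox cells and 10150 to 15640 in -Dox cells. Of these markers Gsn made up most of each sum, with 285900, 139300 and 110200 normalized counts in satellite cells and 26790, 27980 and 20410 in +Dox cells. Against either iPax7 group 6 of these markers were higher in satellite cells and 2 did not pass. Ly6a had 851.7, 2291 and 4725 normalized counts in satellite cells and 2647, 2899 and 9643 in +Dox cells. For smooth muscle and pericyte markers the sum was 19940 to 38950 in satellite cells, 3171 to 7270 in +Dox cells and 54180 to 54530 in -Dox cells. Nearly all of the -Dox sum was Acta2, with 53990 and 53840 normalized counts. Of the 6 markers 4 were lower and 1 higher in -Dox cells than in satellite cells. A list of 12 genes that respond to tissue dissociation and stress, such as Fosb, Atf3 and Hspa1a, summed to 644600 to 1525000 in satellite cells and to 4114 to 5464 in iPax7 cells, and all 12 were higher in satellite cells in both comparisons. Cell source, isolation and library differ together between satellite cells and cultured cells and cannot be told apart, and in bulk RNA a change in the number of cells of a type cannot be told apart from a change in RNA per cell.

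**Figure D1:**
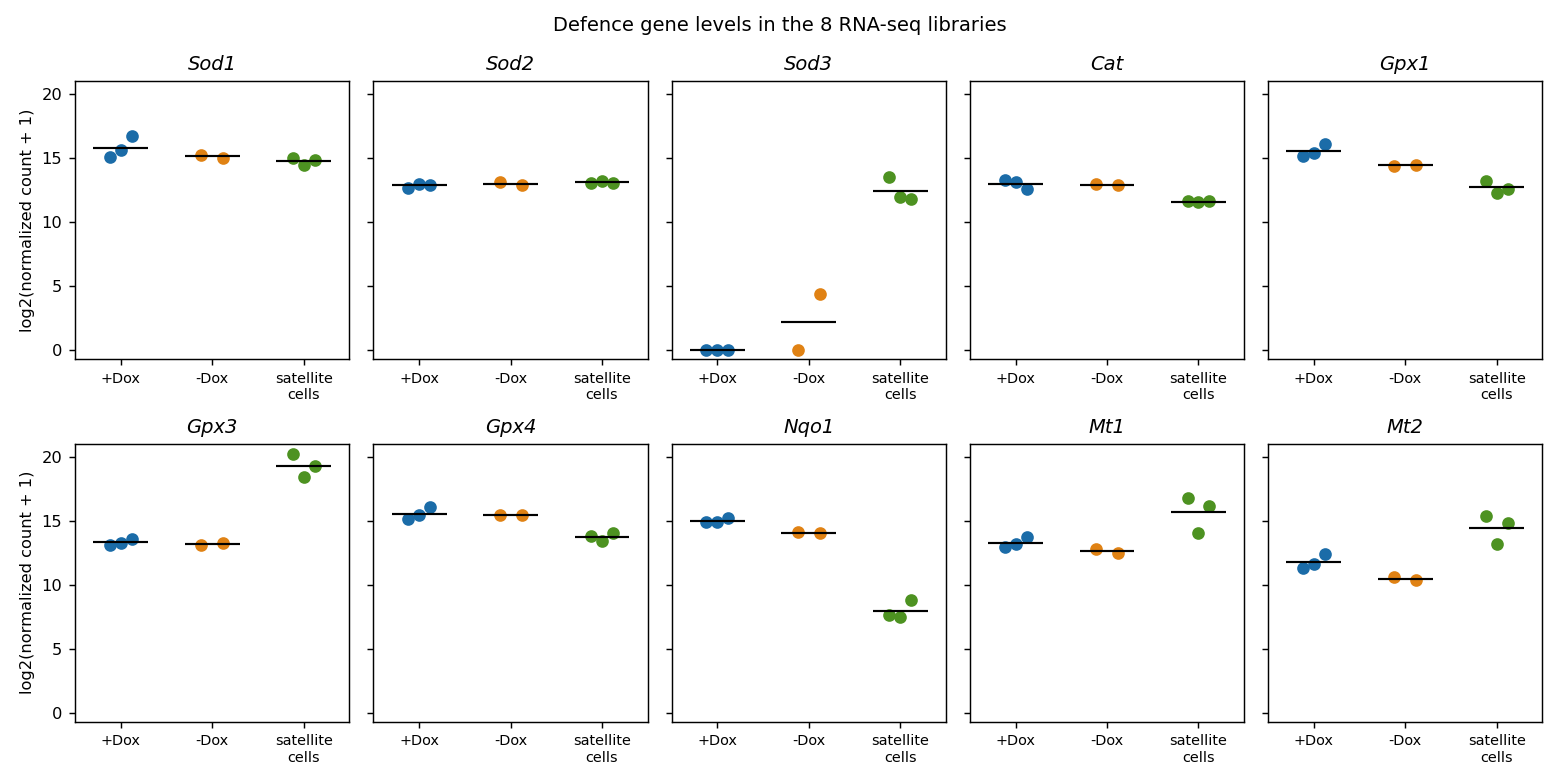
Level of each defence gene, as log2(normalized count + 1), in the 3 +Dox (blue), 2 -Dox (orange) and 3 satellite cell (green) libraries; each point is a library and each line the mean of the group's points. Sod3 lay at 0 in the 3 +Dox libraries, Gpx3, Mt1 and Mt2 were highest in satellite cells and Nqo1 was lowest there.

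Per kilobase of annotated exon, the scale on which levels of different genes can be set side by side, the order of the genes differed between the cultured cells and the satellite cells. In +Dox cells Sod1 averaged 99180 normalized counts per kb, Gpx1 58660, Gpx4 40170 and Nqo1 21000, followed by Mt1, Mt2, Gpx3, Cat and Sod2 at 13610, 6504, 5695, 3168 and 1932. The library ranges of Sod1 and Gpx1 overlapped, as did those of Gpx1 and Gpx4, but each of the 3 libraries had the order Sod1, Gpx1, Gpx4. In -Dox cells the order was Sod1, Gpx4, Gpx1, Nqo1, Mt1, Gpx3, Cat, Mt2 and Sod2, from 55820 down to 2134 per kb. In satellite cells Gpx3 came first with 400600 per kb (189400 to 661300), followed by Mt1 at 87790, Mt2 at 47970 and Sod1 at 43540, the last 3 with overlapping ranges, and Nqo1 came last at 177.5. The 10 genes took 0.437% to 0.748% of all counts in +Dox cells, 0.313% to 0.323% in -Dox cells and 0.805% to 2.79% in satellite cells. Within this share Gpx3 supplied 79.2% to 83.7% in satellite cells and 3.69% to 6.56% in iPax7 cells.

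The comparison of +Dox iPax7 cells with satellite cells asked how the cultured Pax7-positive precursors differ from freshly sorted muscle stem cells. Nqo1, Gpx1, Gpx4, Cat and Sod1 were higher in +Dox cells, and Gpx3, Mt1 and Mt2 were lower. Thus 8 of the 9 genes tested passed an adjusted p of 0.05, 5 of them higher and 3 lower in +Dox cells; over all 14836 genes tested 44.9% passed, 19.8% higher and 25.1% lower. The median log2 fold change of the 9 genes was 1.19 and that of all genes -0.174. The libraries of the 2 groups did not overlap for any of the 9 genes, against 56.5% of all genes tested.

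Sod1, the cytosolic copper-zinc enzyme, had 34920, 50510 and 106800 normalized counts in the +Dox libraries, 38800 and 33320 in the -Dox libraries and 32860, 21760 and 29760 in satellite cells. The third +Dox library had the most Sod1 of all 8, and its ratio of Sod1 to Sod2 was 14.3, against 5.32 and 6.2 in the other +Dox libraries. The log2 difference of +Dox from satellite cells was 1.19 (SE 0.387, adjusted p = 0.0321). It rested on single libraries: without the third +Dox library it was 0.6 (adjusted p = 0.0989), without the second satellite cell library 1.03 (adjusted p = 0.0981) and without the third satellite cell library 1.23 (adjusted p = 0.0717).

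Sod2, the mitochondrial manganese enzyme, was the steadiest of the 10 genes, with 6559, 8149 and 7460 normalized counts in +Dox cells, 8964 and 7360 in -Dox cells and 8635, 9474 and 8347 in satellite cells. All satellite cell libraries lay slightly above the +Dox libraries, but the log2 difference of -0.26 (SE 0.212) did not pass (adjusted p = 0.354).

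Sod3, the extracellular enzyme, was not counted once in the 3 +Dox libraries, which allows up to 3 reads, or 2.73 normalized counts, in a library. In -Dox cells it had 0 and 19.38 normalized counts, the second from 21 reads, and in satellite cells 11860, 3894 and 3502. Satellite cells were thus at least 2670-fold higher than +Dox cells when each +Dox library is set at the floor of 3 reads, and the lowest satellite cell library exceeded the higher -Dox library 181-fold. Without the first satellite cell library the bound against +Dox cells was 1540-fold. The first satellite cell library, with the most Sod3, also had the highest sums of blood, fibroblast and stress genes (11450, 395600 and 1525000), but not of endothelial markers, and their part in the result was not tested. Of the fibroblast markers Gsn, most of that sum, and Col1a1, Col3a1 and Pi16 were highest in the first library. Dcn, Lum and Ly6a were highest in the third satellite cell library and Pdgfra in the second. The 3 genes whose profile over the 8 libraries was most like that of Sod3 among 12339 genes compared were Mylk2, the endothelial adhesion gene Pecam1 and the clock gene Cry2, with Pearson r of 0.997, 0.994 and 0.993 on the log2 scale; the 8 points fall into 3 groups, so that any gene high in satellite cells alone scores well.

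Cat, which encodes catalase, read 9999, 8661 and 6173 normalized counts in +Dox cells, 7915 and 7375 in -Dox cells and 3133, 2995 and 3103 in satellite cells. Every iPax7 library was above every satellite cell library, and the satellite cell libraries differed by less than the others (SD 72.98 around a mean of 3077). The difference of +Dox from satellite cells was 1.43 on the log2 scale (SE 0.244, adjusted p = 0.00146).

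The glutathione peroxidases went in opposite directions. Gpx1, the main cytosolic form, had 35880, 42600 and 70560 normalized counts in +Dox cells, 20920 and 22560 in -Dox cells and 9617, 5009 and 6116 in satellite cells. The 3 groups did not overlap and were ordered +Dox, -Dox, satellite cells. +Dox cells exceeded satellite cells 7.19-fold (log2 difference 2.85, SE 0.348, adjusted p = 0.000242). Gpx4, which protects membrane lipids, had 35370, 43230 and 68770 normalized counts in +Dox cells, 45260 and 43610 in -Dox cells and 14370, 10660 and 17000 in satellite cells. Both iPax7 groups lay above satellite cells and overlapped with each other, and +Dox cells exceeded satellite cells 3.51-fold (log2 difference 1.81, SE 0.3, adjusted p = 0.00126). The ratio of Gpx1 to Gpx4 counts was 0.985 to 1.03 in the +Dox libraries, 0.462 and 0.517 in the -Dox libraries and 0.36 to 0.669 in satellite cells.

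Gpx3, the secreted peroxidase, had 8987, 9855 and 12130 normalized counts in +Dox cells, 8690 and 9673 in -Dox cells and 1199000, 343400 and 636600 in satellite cells. The iPax7 libraries differed little from each other whereas satellite cells exceeded +Dox cells 70.4-fold (log2 difference -6.14, SE 0.486, adjusted p = 2.6e-05). The order of those libraries for Gpx3 was also that of the stress genes (1525000, 644600 and 884000) and of the blood markers (11450, 2812 and 3914). It was not that of the endothelial markers (18580, 24680 and 20560) or of the fibroblast markers (395600, 228400 and 169400), a sum that was mostly Gsn. The part of these lists in the result was not tested. Closest in profile were Angptl7, the haematopoietic GTPase gene Rac2 and Cyth4, each with r = 0.999 over the 8 libraries.

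**Figure D2:**
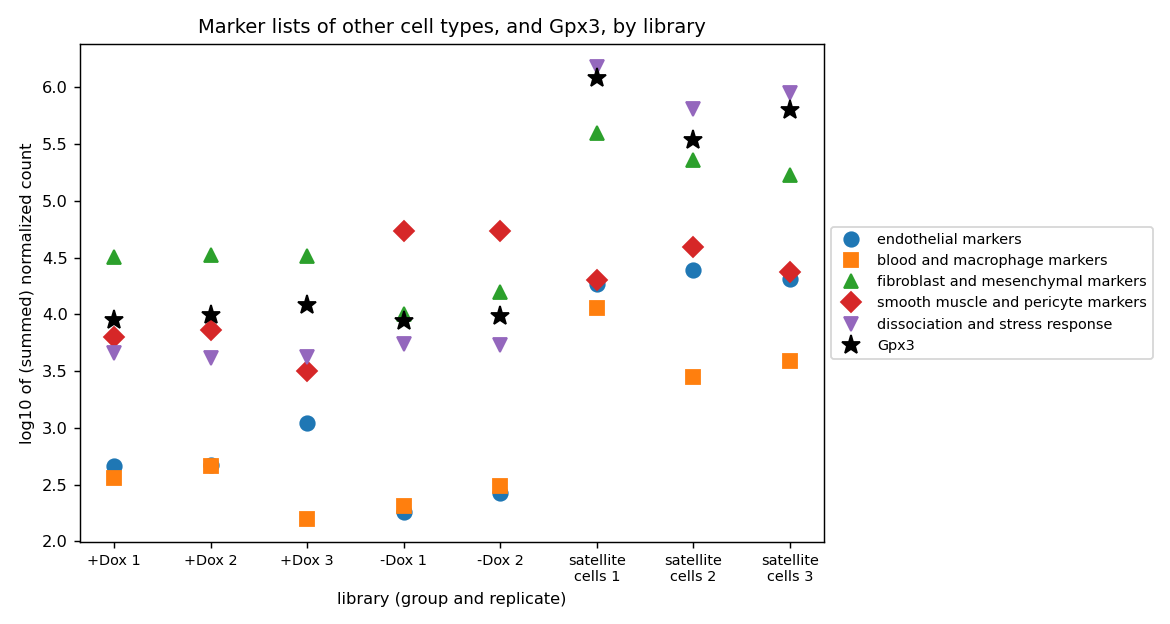
Summed normalized counts, as log10, of marker lists of other cell types and of the dissociation and stress list, with Gpx3 (stars), in each of the 8 libraries. All lists except the smooth muscle list were higher in each of the 3 satellite cell libraries than in any iPax7 library, as was Gpx3. The -Dox sum of the smooth muscle list was nearly all Acta2.

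Nqo1 showed the widest contrast toward the cultured cells. It had 30060, 30110 and 37680 normalized counts in +Dox cells, 17410 and 16510 in -Dox cells, and 197.5, 176.9 and 452.4 in satellite cells. The 3 groups did not overlap. +Dox cells exceeded satellite cells 118-fold (log2 difference 6.89, SE 0.447, adjusted p = 9.9e-06). Closest in profile were Zfand4, the nucleotide hydrolase gene Nudt5 and the DNA repair gene Mgmt, with r of 0.999, 0.997 and 0.995. Nqo1 is read from the minus strand of chromosome 8, and a stretch upstream of its start (mm9 chr8:109927457-109927606, minus strand) is shown since it holds the one match, in the 500 bases before the start, to the core of the antioxidant response element through which Nrf2 acts, in capitals from base -435 to -427.
Nqo1: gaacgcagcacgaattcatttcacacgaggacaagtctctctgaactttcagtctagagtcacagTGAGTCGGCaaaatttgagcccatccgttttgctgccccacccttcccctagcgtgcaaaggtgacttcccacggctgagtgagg
The core was searched as TGACNNNGC or TGAGNNNGC on both strands, letters that can also hold an AP-1 motif, and 37.5% of the 22359 protein-coding genes have a match in a window of this length. Sod1 had 2 such matches and Sod3, Mt1 and Mt2 had 1 each, whereas Sod2, Cat, Gpx1, Gpx3 and Gpx4 had none.

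The metallothioneins were both higher in satellite cells. Mt1 had 7779, 9433 and 13530 normalized counts in +Dox cells, 7224 and 5818 in -Dox cells and 111000, 17040 and 70280 in satellite cells. Mt2 had 2555, 3054 and 5240 in +Dox cells, 1556 and 1289 in -Dox cells and 41500, 9457 and 29050 in satellite cells. For both genes the 3 groups did not overlap, and the second satellite cell library was the lowest of its group by far. That library also had the lowest sums of stress genes (644600) and of blood and macrophage markers (2812). Its sums of endothelial and of smooth muscle markers were the highest of the group (24680 and 38950). The part of these lists was not tested. Satellite cells exceeded +Dox cells 6.45-fold in Mt1 (log2 difference -2.69, SE 0.571, adjusted p = 0.00461, and -2.09 with adjusted p = 0.0138 without the first satellite cell library) and 7.38-fold in Mt2 (log2 difference -2.88, SE 0.515, adjusted p = 0.00181). Mt1 and Mt2 followed each other with r = 0.979, and Mt2 was the third closest gene to Mt1 after Gstm2 (r = 0.985) and Rnase4 (r = 0.98). The genes closest to Mt2 were Defb25, Rusc2 and Tshz3 (r = 0.993, 0.983 and 0.983). The ratio of Mt1 to Mt2 counts was 2.58 to 3.09 in +Dox cells, 4.52 and 4.64 in -Dox cells and 1.8 to 2.67 in satellite cells.

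The 2 genes lie on the plus strand of chromosome 8 with Mt2 first and the start of Mt1 6471 bases further on. The 250 bases before the first annotated start of each are shown because they hold metal response elements, the sites of Mtf1, searched as TGCACNC or TGCGCNC on both strands and set in capitals.
Mt1 (mm9 chr8:96702739-96702988, plus strand): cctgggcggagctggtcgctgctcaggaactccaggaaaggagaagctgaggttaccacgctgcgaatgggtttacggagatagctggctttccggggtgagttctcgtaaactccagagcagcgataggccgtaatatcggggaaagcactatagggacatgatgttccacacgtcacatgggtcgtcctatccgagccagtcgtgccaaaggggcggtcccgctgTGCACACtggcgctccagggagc
Mt2 (mm9 chr8:96696268-96696517, plus strand): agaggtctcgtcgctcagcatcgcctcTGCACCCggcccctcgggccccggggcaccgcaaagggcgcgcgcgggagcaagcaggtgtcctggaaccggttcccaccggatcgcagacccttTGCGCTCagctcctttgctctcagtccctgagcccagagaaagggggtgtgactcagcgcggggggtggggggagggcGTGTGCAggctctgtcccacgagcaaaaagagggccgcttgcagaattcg
Mt2 held 3 matches and Mt1 held 1, while 23.7% of genes have at least 1 and 1.61% at least 3 in a window of this length. Mt1 has a second annotated start 122 bases downstream, and the 250 bases before that start held 5 matches. The match at base -145 from the second start is the match shown above for Mt1. Before their first start 0.0805% of genes reach 5 matches, but second starts of other genes were not searched, so this share is no like background. Of the other 8 genes none had a match within 250 bases of its start.

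**Figure D3:**
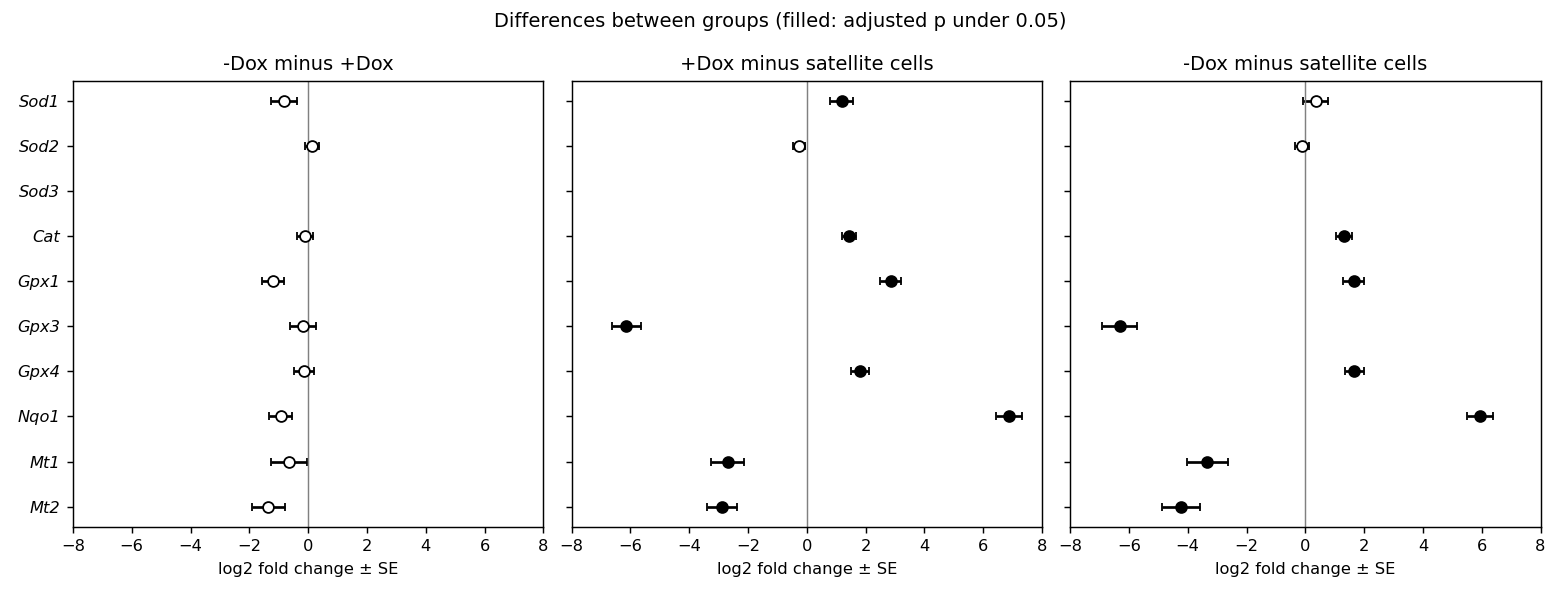
Fitted log2 fold change with its standard error for each gene in the 3 comparisons, positive where the first group named was higher; filled points passed an adjusted p of 0.05, and no value is drawn for Sod3. None of the points of the -Dox and +Dox comparison is filled, whereas 8 are filled for +Dox and 7 for -Dox against satellite cells.

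Withdrawal of Dox for 3 days, which asked what the loss of Pax7 and the onset of differentiation do to these genes, moved none of the 9 genes tested past the threshold (0 of 9, against 7.7% of all genes tested, 4.66% higher and 3.04% lower in -Dox cells). At an unadjusted p under 0.05 there were 3 genes, Gpx1, Nqo1 and Mt2, all lower in -Dox cells; 21.6% of all genes met that limit, 10.3% with a lower value in -Dox cells. The log2 difference of -Dox from +Dox cells was -1.19 for Gpx1 (SE 0.378, adjusted p = 0.0944), -0.94 for Nqo1 (SE 0.396, adjusted p = 0.204) and -1.35 for Mt2 (SE 0.562, adjusted p = 0.201). For these genes and for Mt1 (-0.65, SE 0.611, adjusted p = 0.627) both -Dox libraries lay below all +Dox libraries. These 4 of 9 genes are close to the background, since the groups did not overlap for 45.3% of all genes, 22.7% with -Dox cells lower. When the iPax7 groups were fitted without the satellite cells, Gpx1, Nqo1 and Mt2 passed (adjusted p = 0.0419, 0.0176 and 0.0458), and Gpx1 alone passed in DESeq2 (adjusted p = 0.0419). The other 5 genes, Sod1, Sod2, Cat, Gpx3 and Gpx4, overlapped between the groups, with log2 differences of -0.83, 0.14, -0.11, -0.17 and -0.14. Of the 9 genes 8 had a negative value and the median was -0.65, against -0.00492 over all genes.

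Against satellite cells, 7 of the 9 genes other than Sod3 passed in -Dox cells, with Cat, Gpx1, Gpx4 and Nqo1 higher and Gpx3, Mt1 and Mt2 lower; over all genes 39% passed, 18.1% higher and 20.9% lower. This comparison shares its satellite cell libraries with the one above and is not independent of it. Nqo1 was 61.5-fold higher in -Dox cells (log2 difference 5.94, SE 0.439, adjusted p = 3.38e-05) and Gpx3 was 79.1-fold higher in satellite cells (log2 difference -6.31, SE 0.589, adjusted p = 9.44e-05). The log2 difference was 1.31 for Cat, 1.65 for Gpx1, 1.67 for Gpx4, -3.34 for Mt1 and -4.23 for Mt2, with adjusted p between 0.00102 and 0.006. Sod1 (0.36, adjusted p = 0.528) and Sod2 (-0.11, adjusted p = 0.738) did not pass.

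Of 23 further genes of glutathione supply and the Nrf2 programme, 8 were higher and 5 lower in +Dox cells than in satellite cells. Over all genes tested 19.8% were higher and 25.1% lower in that comparison. For -Dox against satellite cells the shares were 18.1% and 20.9%, and on Dox withdrawal 4.66% rose and 3.04% fell. These shares are the background for this list and the lists below, whose counts were not tested against it. Hmox1, which degrades heme, averaged 3794 normalized counts in +Dox cells and 121100 in satellite cells (log2 difference -5, adjusted p = 1.76e-05), opposite in direction to Nqo1. Gsta4, a glutathione transferase (19110 against 771.6), the malic enzyme gene Me1 (3153 against 168.3) and Pgd of the pentose phosphate pathway (26520 against 2987) were higher in +Dox cells; without the third satellite cell library the Me1 mean there was 73.1. In -Dox cells 8 genes were higher and 8 lower than in satellite cells, the latter including Srxn1, which repairs peroxiredoxins (1681 against 26090), and Osgin1 (3441 against 43950). Every +Dox library also lay below every satellite cell library for Srxn1 (3412 to 3869 normalized counts) and Osgin1 (5856 to 7657). On Dox withdrawal 2 genes fell and none rose: Gclm, the modifier subunit of the rate-limiting enzyme of glutathione synthesis, from 1352 to 390 (log2 difference -1.79, adjusted p = 0.0433), and Taldo1 from 33490 to 16750 (log2 difference -1, adjusted p = 0.0414). Both calls were lost on leaving out any of the 5 iPax7 libraries, with adjusted p of 0.0822 to 0.272 for Gclm and 0.0569 to 0.329 for Taldo1. Nfe2l2 itself, its inhibitor Keap1 and the metal sensor Mtf1 passed in none of the 3 comparisons. Nfe2l2 averaged 9142, 7612 and 14810 normalized counts in +Dox, -Dox and satellite cells. The satellite cell mean rested on the third library, with 10690, 8213 and 25520 normalized counts, against 7511 to 10020 in +Dox cells.

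Of 23 peroxiredoxin and thioredoxin genes, 11 were higher and 5 lower in +Dox than in satellite cells, against 19.8% and 25.1% of all genes. Prdx2, a cytosolic peroxiredoxin, averaged 24580 against 4385 and Glrx5 595.1 against 132.2, while the thioredoxin inhibitor Txnip averaged 1351 against 10470 and Sesn1 350.5 against 2071. The Txnip level of satellite cells rested on the first library, with 22750, 3906 and 4736 normalized counts, and its log2 difference was -2.95 with that library and -1.68 without it (adjusted p = 0.00527 and 0.00303). In -Dox cells 8 were higher and 5 lower than in satellite cells, with the mitochondrial Prdx3 at 13120 against 2490. Prdx3 was also above every satellite cell library in the +Dox libraries, with 8031, 8540 and 10770 normalized counts. On Dox withdrawal 1 fell, Prdx4 of the endoplasmic reticulum, from 12160 to 4825 (log2 difference -1.33, adjusted p = 0.0202), a call lost without the second +Dox library (adjusted p = 0.0594) or without the first or second -Dox library (adjusted p = 0.133 and 0.231).

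Of 5 other glutathione peroxidases only Gpx7 and Gpx8 were abundant enough to test. In satellite cells Gpx7 was higher (1100 against 315 in +Dox and 202.2 in -Dox cells) and Gpx8 lower (5767 against 13930 and 15450). The Gpx7 call was lost without the first or second +Dox library (adjusted p = 0.0571 and 0.0624) or, for -Dox cells, without the first or second -Dox library (adjusted p = 0.0666 and 0.0757), and the Gpx8 call for -Dox cells without the first -Dox library (adjusted p = 0.0697). Glutathione peroxidases 1, 3 and 4 carry selenocysteine. Of 13 genes that make or supply selenoproteins 4 were higher and 3 lower in +Dox than in satellite cells, against 19.8% and 25.1% of all genes. Sepp1, the plasma carrier of selenium, averaged 1129 against 17280, Selm 314.4 against 2051, and Pstk, which acts in the synthesis of selenocysteine, 1042 against 233.6. On Dox withdrawal none of the 13 passed.

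Sod1 needs copper and zinc. Of 14 genes of copper and zinc handling tested out of 16 listed, 3 were higher and 2 lower in +Dox than in satellite cells, with the same counts for -Dox cells. Over all genes 19.8% were higher and 25.1% lower in +Dox cells, and 18.1% and 20.9% in -Dox cells. The same shares stand beside the counts of the iron and superoxide lists below. Ccs, the copper chaperone for Sod1, averaged 3233 in +Dox and 3985 in -Dox cells against 1231 in satellite cells, and the copper chaperones Atox1 and Cox17 were also higher in both iPax7 groups. The zinc and iron importer Slc39a14 averaged 308.1 in +Dox cells, 92.61 in -Dox cells and 9208 in satellite cells, and was the only gene of the list that fell on Dox withdrawal (log2 difference -1.73, adjusted p = 0.0102, and 0.148 without the first -Dox library). Of 14 iron genes 1 was higher and 5 lower in +Dox than in satellite cells, among them Cp, or ceruloplasmin (2737 against 22330), and Slc11a2 (1349 against 7385). On Dox withdrawal 1 iron gene rose, Bdh2, from 94.14 to 474.8 (log2 difference 2.33, adjusted p = 0.0398), a call lost on leaving out any of the 5 iPax7 libraries (adjusted p of 0.0522 to 0.189). Among 12 tested genes that make superoxide or hydrogen peroxide, 2 were higher and 6 lower in +Dox than in satellite cells. Of the lower genes Cybb and Rac2, parts of the phagocyte oxidase, had no count in any iPax7 library. Cybb had 1403, 34.85 and 34.29 normalized counts in the satellite cell libraries and Rac2 had 1489, 261.4 and 623.8, both highest in the first library, where the blood and macrophage markers were highest too; their part in the result was not tested. Ncf1, of the same complex, had no count in +Dox cells, 283.1 and 159.7 normalized counts in -Dox cells and 297.5, 0 and 112.1 in satellite cells. It was the 1 gene of this list that rose on Dox withdrawal (log2 difference 10.83, adjusted p = 0.0491). The call was lost on leaving out any +Dox library (adjusted p of 0.106 to 0.114). Without the first or second -Dox library the log2 difference was 10.35 or 11.2. The blood and macrophage markers of -Dox cells summed to 204.9 to 307.4, within the range of +Dox cells, but most of that sum was Cd68 (181 and 205.8). Their part in the Ncf1 result was not tested.

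The peaks of accessible chromatin and histone marks, called by the authors, were then set beside the RNA levels. Replicates had been merged before peak calling, so these values have no error and were not tested. An ATAC-seq peak lay within 1000 bases of the start of all 10 genes in +Dox cells, -Dox cells at 3 d and satellite cells, and of 9 genes 12 and 24 h after Dox withdrawal, Sod3 being without one; in the same order of samples 60.7%, 63.2%, 56.3%, 58.8% and 61.9% of the 22359 protein-coding genes had such a peak. Since fold enrichment depends on the depth of each sample, the strongest summit near a start was ranked among all genes of its own sample.

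Sod3 had summits of 3.44-fold enrichment in +Dox cells and 2.31-fold in -Dox cells at 3 d, above 43.7% and 38.4% of genes, and of 18.7-fold in satellite cells, above 80.7%. Gpx3 had 3.44-fold in +Dox cells, 3.15, 3.82 and 5.64-fold at 12 h, 24 h and 3 d without Dox, above 42.9% to 47% of genes, and 16-fold in satellite cells, above 76.6%. Both genes with the widest RNA excess in satellite cells thus had their highest rank there, as did Cat, whose RNA was lower there. Nqo1 went the other way in rank, with summits above 89.2%, 88.1%, 92% and 88.2% of genes in the 4 iPax7 samples and above 64% in satellite cells, although its 9.76-fold summit was a called peak there too. The summit of Mt1 ranked above 94.7% to 97.2% of genes in iPax7 samples and above 79.8% in satellite cells, where its RNA was higher. Mt2 ranked above 68.1% to 80.8% in iPax7 samples and, with a 16.2-fold summit, above 76.9% in satellite cells. A 53.5-fold summit of satellite cells at base -1044 from the Mt2 start lay just outside the window of 1000 bases. It did not enter the rank, and ranks in a wider window were not computed. Sod1, Sod2, Cat, Gpx1 and Gpx4 ranked above 81.3% to 95.4% of genes in all iPax7 samples and above 57% (Gpx1) to 92.9% (Cat) in satellite cells.

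**Figure D4:**
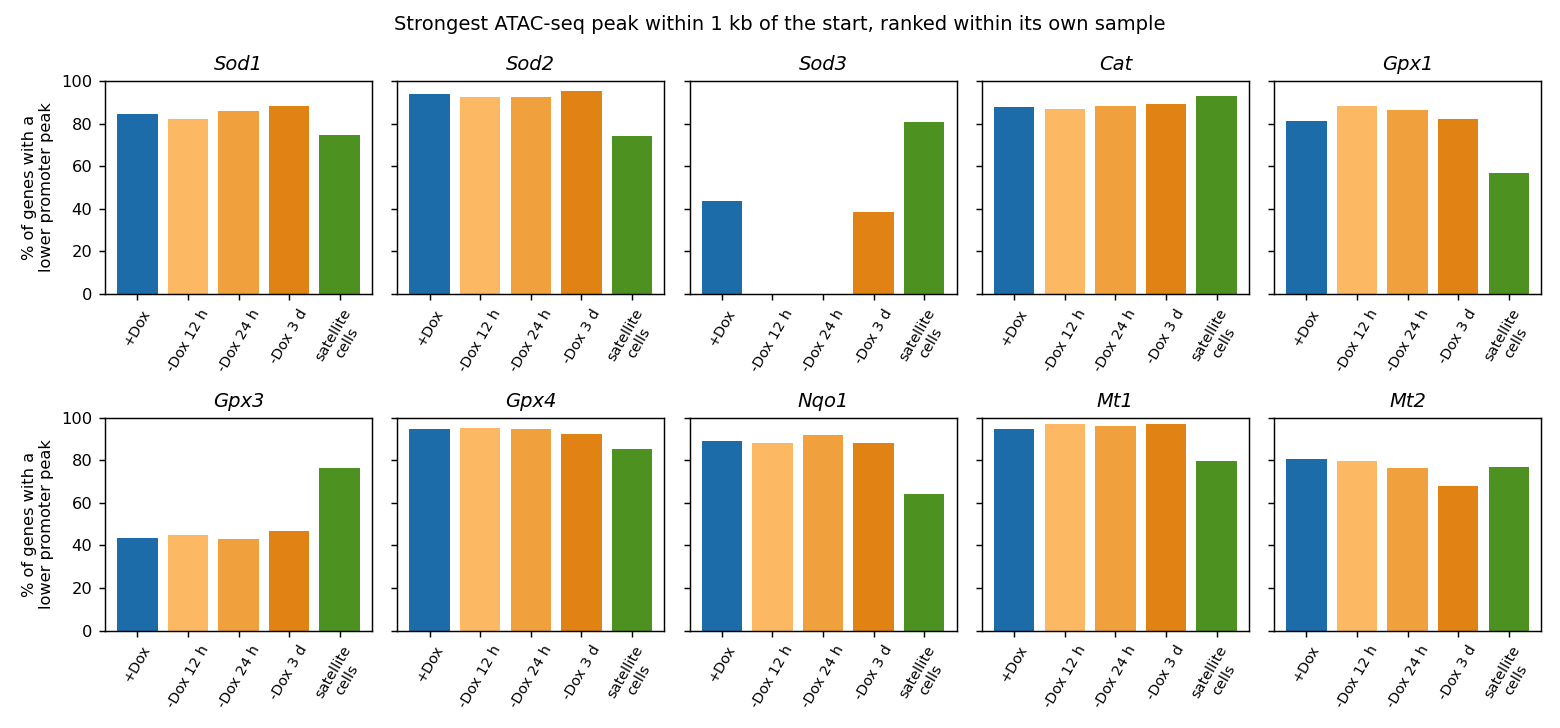
Share of protein-coding genes whose strongest ATAC-seq summit within 1 kb of the start was lower than that of the gene named, for each of the 5 samples (bars). Sod3, Gpx3 and Cat each had their highest rank in satellite cells, at 80.7%, 76.6% and 92.9%, and Sod3 had no peak 12 and 24 h after Dox withdrawal.

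Histone marks were mapped in +Dox and -Dox iPax7 cells. H3K4me3, a mark of active promoters, and H3K27Ac, a mark of active promoters and enhancers, lay within 1000 bases of the start of 9 genes in both conditions, all but Sod3, against 58.4% and 46% of genes in +Dox cells and 64.1% and 43.1% in -Dox cells. At Sod3 only H3K4me1 was present. The repressive mark H3K27me3 was at none of the 10 starts, Sod3 included, while 20.3% of genes in +Dox cells and 18.5% in -Dox cells carried it. In the window around the start, H3K27Ac covered 90.8% at Gpx3 in +Dox cells and 13.3% in -Dox cells, while the Gpx3 RNA levels of these groups overlapped, and 91.5% and 39.6% at Mt2. At Nqo1 the mark covered 96.9% and 79.9%, at Mt1 84.7% and 71.9%, at Sod2 57.7% and 45.8% and at Sod1 65.4% and 58.2%. It changed little at Gpx4 (83.8% and 80.6%) and Cat (72.5% and 72.3%) and was higher in -Dox cells at Gpx1 (94.5% and 96.8%). The -Dox set held fewer H3K27Ac peaks in all, 90168 against 119528, and the coverage over all genes was not measured.

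A Pax7 binding site, one of 2455 in +Dox cells, lay at the 3′ end of Mt2 (mm9 chr8:96697337-96697845), 819 bases past its start and 5144 bases before Mt1; 1.35% of genes have a site within 1000 bases of the start. Beside the metallothioneins the gene with the nearest site was Gpx3, 18.9 kb upstream, a distance within which 4.59% of genes have one. The site held ATAC-seq summits of 18.3-fold enrichment in +Dox cells and 6.66, 9.25 and 8.05-fold at 12 h, 24 h and 3 d without Dox, and 6.64-fold in satellite cells; 49.2% of Pax7 sites had a lower value in +Dox cells and 64.9% to 70.3% in the others. H3K27Ac, H3K4me1 and H3K4me3 overlapped it in both conditions and H3K27me3 in neither. Of all Pax7 sites 73.2%, 91.2%, 66.3% and 4.97% had these marks in +Dox cells and 37.9%, 73.8%, 75.6% and 3.3% in -Dox cells. The H3K27Ac peaks on the site ran from base 96 to 1122 and 1198 to 1556 past the Mt2 start in +Dox cells. In -Dox cells the peak ran from base 689 to 973 and reached only the first part of the site. The first 131 bases of the site are Mt2 3′ UTR, and of the 378 bases beyond the annotated gene end the first 160 (chr8:96697468-96697627, plus strand) are shown, with a GTCATGC motif in capitals.
Pax7 site: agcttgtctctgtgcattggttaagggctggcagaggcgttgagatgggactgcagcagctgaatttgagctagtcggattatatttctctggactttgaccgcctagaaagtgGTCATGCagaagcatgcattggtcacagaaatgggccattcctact
Letters bound by paired domains were searched as GTCATGC or GTCACGC, found in 10.5% and 5.09% of all Pax7 sites, whereas the palindromic homeodomain motif of paired-class factors was in 5.13% of sites and not in this one. Sequence outside Pax7 sites was not searched for these letters. Whether they are more frequent in Pax7 sites than elsewhere was thus not tested. A further summit at base -1044 from the Mt2 start had 53.5-fold enrichment in satellite cells. Summits between bases -1150 and -1049 had 11.5, 8.06, 12.3 and 16.7-fold in +Dox cells and 12 h, 24 h and 3 d without Dox. These values depend on the depth of each sample and were not ranked.

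**Figure D5:**
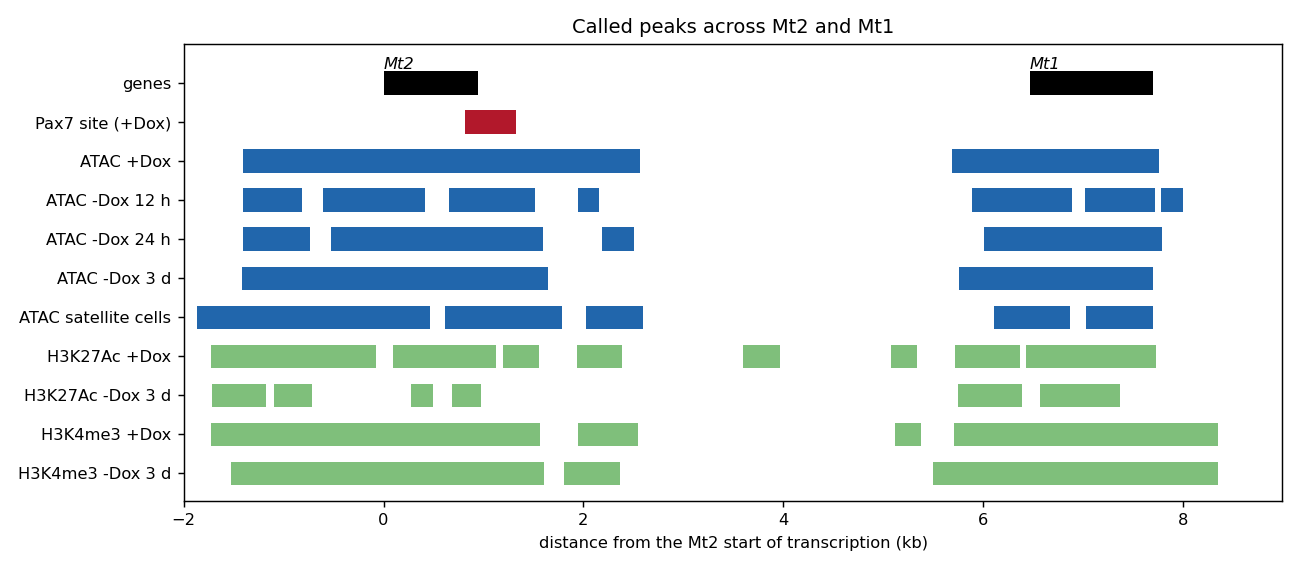
Peaks called by the authors across Mt2 and Mt1, drawn by their distance from the Mt2 start in kb, with genes in black, the Pax7 site of +Dox cells in red, ATAC-seq peaks in blue and histone marks in green. The Pax7 site begins 819 bases past the Mt2 start and is covered by an ATAC-seq peak in each of the 5 samples.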

How the data were processed

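Count tables from 8 RNA-seq libraries were used. The authors deposited raw read counts per gene symbol, as HTSeq 0.6 writes them; the submitters' processing notes also name Trimmomatic 0.32, TopHat2 2.0 and mm9. Rows for reads without a gene, including those aligned to several places, stayed out of library sizes. Replicate numbers were taken from the deposited files, each group being 1 deposited sample. Counts were tested in edgeR 4.0.16 (R 4.3.3) with TMM scaling, filterByExpr, the quasi-likelihood test over all 8 libraries and Benjamini-Hochberg adjustment, called at an adjusted p under 0.05; the SE, taken as |log2 fold change| over √F, is approximate. The script was tested on simulated counts. DESeq2 1.42.0, another scaling and filters, fits of 2 groups, a replicate block and leaving out each library were alternatives. All replicates differed beyond sampling noise. Sod3 was in the fit, but its tests are not reported, since it passed the filter through satellite cells and was chosen for its absence from +Dox cells. Strand was not stated, and genes with near-identical copies, such as Gpx1, Gpx4, Mt1 and Mt2, may share or lose reads.

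ATAC-seq peaks (deposited by the authors with the fold enrichment ratio and −log10 p and q values of MACS2 2.0.10, replicates merged) and ChIP-seq peaks, merged for histone marks and, for Pax7, found in at least 2 +Dox samples and no -Dox sample, were overlapped with windows of 1000 bases each side of the most upstream protein-coding start in GENCODE M1 (mm9, NCBIM37). Sequence was read with samtools 1.23.1. Named genes were the 10 listed genes, up to 4 genes per pathway list and comparison with the largest fold change among those that passed and averaged 100 or more normalized counts in either group, the factors Pax7, Myog, Nfe2l2, Keap1, Mtf1 and Ccs, and the 3 closest profiles by Pearson r on log2(normalized count + 1). The genes and lists were chosen with earlier results of these data known. Myotube and C2C12 data were not used here.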

Additional observations from a re-analysis of the deposited data

How the results depend on the processing

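In the comparison of +Dox with satellite cells 131 results for single genes under the alternatives kept direction and call, and 4, all for Sod1, kept direction but lost the call; the replicate block in the fit of 2 groups is 1 of these (log2 difference 1.12, adjusted p = 0.0597). For -Dox against satellite cells 134 held, Sod3 not counted, and 1 reversed, Sod2 at 0.08 without the second -Dox library (-0.26 to 0.08 on leaving out single libraries). For -Dox against +Dox 122 held, 8 gained a call and 5 reversed: Gpx4 at 0.11 with the replicate block over all 8 libraries, 0.19 with the replicate block in the fit of 2 groups and 0.18 without the third +Dox library (-0.33 to 0.18), Cat at 0.05 without the first +Dox library (-0.29 to 0.05), and Sod2 at -0.01 without the first -Dox library (-0.01 to 0.29), the ranges being over single libraries left out. The count of the 9 genes called on Dox withdrawal (0) was 1 in DESeq2, 3 in the fit of 2 groups alone, 3 with the replicate block added to that fit and 0 to 1 on leaving out single libraries, the 1 being Nqo1 without the third satellite cell library. Over all genes that comparison called 1142, but 2303 in DESeq2, 2155 in the fit of 2 groups, 742 with the replicate block over all libraries, 4017 with the replicate block in the fit of 2 groups, and 488 to 1444 on leaving out single libraries (508 and 488 without the first and second -Dox library, 674 and 630 without the first and second +Dox library). The calls of -Dox against satellite cells (5780) ranged from 3204 to 6131 on leaving out single libraries, at 3204 and 3382 without the first and second -Dox library, where the lone one is assumed to vary like the other groups. Same-numbered libraries did not deviate together (r from -0.0398 to 0.0272). The 2 -Dox libraries deviate from their mean by equal and opposite amounts, so the check is weak there and does not exclude pairs. In the fit of the 2 iPax7 groups the replicate block fits the third +Dox library, which has no -Dox partner, by itself. Its log2 differences are thus close to those without that library (-0.85 for Gpx1 in both). The median of all genes for +Dox against satellite cells moved from -0.174 to -0.488 in DESeq2 and to -0.421 without the filter. Counts of genes with a promoter peak stayed within 1.5 times in a window of 2500 bases, with 100 bases of overlap and, for ATAC-seq, at a −log10 q of at least 10. The cause of these changes was not tested. At 39010958 or more reads per library depth limits Sod3 in iPax7 cells alone among the 10 genes.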
